A study of Mus musculus with 6 samples.

Results

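A set of 8 genes known from the fluid-facing epithelia of the brain, out of the 1031 gene symbols that the authors deposited as differing between HuD-KO and WT striatum, was followed array by array. They were chosen by symbol: Calml4, Clic6, Enpp2, F5, Kcnj13 and Sostdc1 as genes of the choroid plexus epithelium, and Ccdc153 and Tmem212 as genes of ependymal cells with motile cilia. Because the choice was made on the HuD-KO against WT contrast itself, every difference between the genotypes below is a description and carries no test. The 8 genes were measured by 10 named probes, all of them in the deposited table of transcripts lower in HuD-KO. Each probe was well above background on every one of the 6 arrays.

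Striatal RNA came from 3 adult HuD-KO mice (Elavl4-/-, without the neuronal RNA-binding protein HuD) and 3 adult WT littermates, with 1 array per mouse. Age, sex, strain and the design of the mutant allele are not given in the labels. Total RNA was extracted with Trizol, depleted of ribosomal RNA, amplified from mixed oligo(dT) and random primers, labelled with Cy3 and hybridized to a 1-colour array of messenger and long non-coding RNAs. Levels are the log2 of the processed signal relative to the 75th percentile of the array, so a level of 0 equals that percentile, and differences are HuD-KO minus WT on this scale. The 75th percentile lay between 446 and 615, and between 77.8% and 82.0% of target spots were well above background. The number of arrays, 3 per group, limits the precision.

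The choroid plexus is a folded sheet of epithelium within the ventricles that secretes cerebrospinal fluid, and its cells make transporters, channels and secreted proteins, many of which neurons of the striatum lack. Ependymal cells line the ventricle wall and bear tufts of motile cilia that move this fluid, and choroid epithelial cells arise from the same neuroepithelium. The striatum borders the lateral ventricle, where both cell types are found. In bulk tissue, fewer cells of a type and less RNA per cell cannot be told apart.

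The genotype labels were checked with Elavl4, the gene for HuD. Its probe gave processed signals of 11.3, 8.12 and 8.81 in HuD-KO mice 1 to 3 and of 233, 181 and 275 in WT mice 1 to 3. Its signal was well above background in all 3 WT mice and in 0 HuD-KO mice. The genotypes also differed in Y-linked genes. Uty levels were 2.48, 2.54 and 2.58 in HuD-KO and -3.09, -2.73 and -3.05 in WT. Eif2s3y levels were 0.01, 0.18 and 0.22 in HuD-KO and -3.38, -3.57 and -3.48 in WT. Kdm5d and Ddx3y were well above background in 3 HuD-KO mice and 0 WT mice, whereas Uty and Eif2s3y were so in 3 mice of each genotype. A difference that goes with the signal of Y-linked genes cannot be told apart from one that goes with the genotype in these 6 mice.

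The probes that separate transcripts of one gene, and those of F5 and Ccdc153, whose arrays spread widely in HuD-KO and in WT respectively, are shown first because the values below turn on them. Each is a 60-base oligonucleotide, written 5′ to 3′ as deposited, all in lower case because no base within it is singled out. The deposited tables name no genome build. Of the 8 genes, 4 had the same transcript start and 4 the same transcript end as RefSeq in GRCm38.p6, and 5 shared at least 1 of them. The coordinates are those of the tables with starts counted from 1, and a span longer than the probe includes introns.
F5, chr1:164217376-164217549, plus strand: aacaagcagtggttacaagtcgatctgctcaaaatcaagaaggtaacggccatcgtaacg
Calml4 NM_001102468, chr9:62858264-62871265, plus strand: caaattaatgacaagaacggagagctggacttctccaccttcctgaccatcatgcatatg
Calml4 NM_138304, chr9:62868706-62868817, plus strand: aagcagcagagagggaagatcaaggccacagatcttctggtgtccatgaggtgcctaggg
Enpp2 ENSMUST00000171545, chr15:54877798-54877931, minus strand: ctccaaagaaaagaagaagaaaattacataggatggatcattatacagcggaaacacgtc
Ccdc153, chr9:44241628-44241687, plus strand: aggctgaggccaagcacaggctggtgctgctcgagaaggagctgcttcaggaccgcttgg

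All 8 genes were over 2-fold lower in HuD-KO than in WT, where 4.63% of the 47857 probes tested were over 2-fold lower, and on all 8 every HuD-KO array lay below every WT array, as it did for 22.5% of the probes. The median difference of the 6 choroid epithelium genes was -1.51 and the mean of the 2 motile cilia genes -1.83, where the median over all tested probes was 0.04. Since the genes were selected on this contrast, nothing is read from these counts. Nearest to 2-fold were Sostdc1 at 2.25-fold and Enpp2 at 2.40-fold. Probes just outside 2-fold carry no gene name here.

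**Figure D1:**
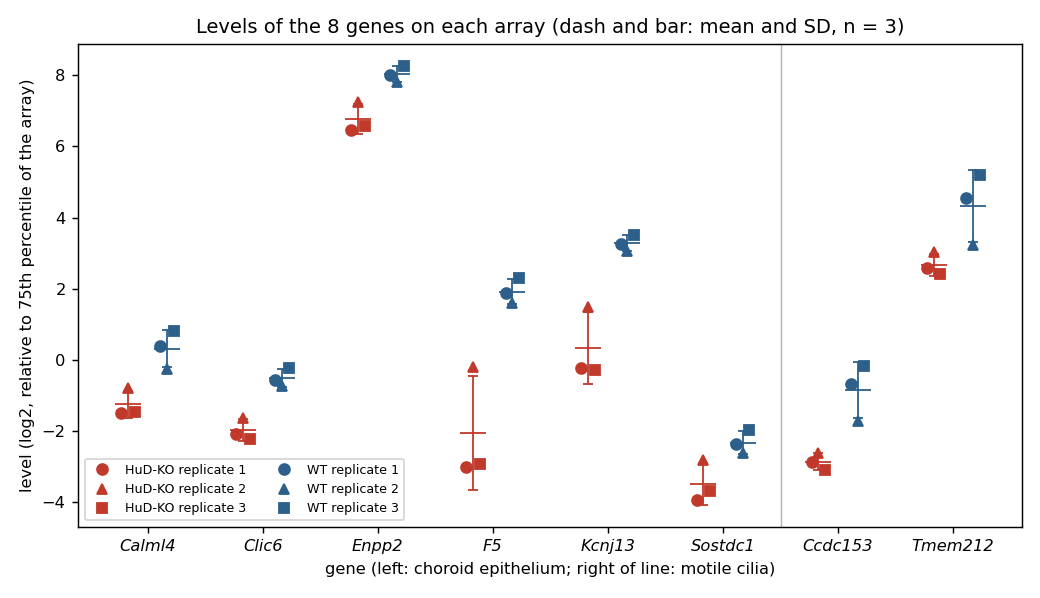
Levels of the 8 genes (log2, relative to the 75th percentile of the array) on the 3 HuD-KO arrays (red) and the 3 WT arrays (blue), with a marker shape per replicate number and a dash and bar for the mean and SD (n = 3). The HuD-KO triangle is the highest HuD-KO point and the WT triangle the lowest WT point for each of the 8 genes. Heights of different genes are not comparable, since each has its own probe.

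The genes of the ion channels and membrane proteins are taken first. Kcnj13 (NM_001110227) encodes Kir7.1, an inwardly rectifying potassium channel of the choroid plexus and retinal pigment epithelium. Its processed signals were 459, 1539 and 506 in HuD-KO and 4745, 3859 and 5123 in WT, which are levels of -0.22, 1.49 and -0.28 against 3.26, 3.06 and 3.52. HuD-KO replicate 2 stood 1.77 above the lowest HuD-KO array, a 3.42-fold range, and the groups remained 1.56 apart at their nearest arrays. The difference was -2.95 (SE 0.49, limma's moderated variance, n = 3 per group), or 7.72-fold lower. Clic6 (NM_172469), of the chloride intracellular channel family, had levels of -2.07, -1.63 and -2.21 in HuD-KO and -0.56, -0.74 and -0.23 in WT. Its arrays were close together within each genotype (SD 0.30 and 0.26), and the difference was -1.46 (SE 0.20), or 2.74-fold lower.

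The secreted proteins follow. F5 (NM_007976), coagulation factor V, is best known as a liver-made clotting cofactor. Its processed signals were 66.5, 477 and 81.0 in HuD-KO and 1822, 1399 and 2206 in WT, or levels of -3.01, -0.20 and -2.93 against 1.88, 1.59 and 2.31. HuD-KO replicate 2 was far above the other HuD-KO arrays, with a range of 2.81 (7.02-fold), yet stayed 1.79 below the lowest WT array. The difference was -3.97 (SE 0.77), or 15.7-fold lower, and -4.89 without HuD-KO replicate 2.

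Enpp2 (NM_015744) encodes autotaxin, the secreted enzyme that makes lysophosphatidic acid, and is also made by oligodendrocytes. The processed signals of its brighter probe were 47449, 83022 and 58910 in HuD-KO and 127938, 104356 and 136474 in WT. On the scaled axis these were 6.47, 7.25 and 6.58 against 8.01, 7.81 and 8.26, a difference of -1.26 (SE 0.23), or 2.40-fold lower. Sostdc1 (NM_025312), a secreted antagonist of BMP and Wnt signalling, had levels of -3.94, -2.82 and -3.69 in HuD-KO and -2.37, -2.62 and -1.96 in WT. The groups were 0.21 apart, and before scaling they overlapped, with a processed signal of 77.3 on HuD-KO replicate 2 and of 75.6 on WT replicate 2. The difference was -1.17 (SE 0.32), or 2.25-fold lower.

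Calml4 (NM_001102468), a calmodulin-like protein, is the sixth choroid epithelium gene. Its levels were -1.50, -0.79 and -1.45 in HuD-KO and 0.39, -0.24 and 0.82 in WT. WT replicate 2 was low and HuD-KO replicate 2 high, and the groups were 0.56 apart. The difference was -1.57 (SE 0.32), or 2.97-fold lower.

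The motile cilia genes had the wider spread in WT. Ccdc153 (NM_001081369), which encodes a coiled-coil protein, had processed signals of 72.8, 89.2 and 72.3 in HuD-KO and 310, 141 and 398 in WT. Its levels were -2.88, -2.62 and -3.09 against -0.68, -1.72 and -0.16, so that the 3 HuD-KO arrays were close together (SD 0.24) and WT replicate 2 lay well below the other WT arrays (SD 0.79). The difference was -2.01 (SE 0.39), or 4.02-fold lower. Tmem212 (NM_001164437), a transmembrane protein gene, had levels of 2.57, 3.03 and 2.42 in HuD-KO and 4.54, 3.23 and 5.21 in WT. WT replicate 2 came within 0.20 of the highest HuD-KO array, and before scaling it was below it, with a processed signal of 4348 against 4463 on HuD-KO replicate 2. The WT range was 1.98 (3.95-fold), and the difference was -1.66 (SE 0.50), or 3.15-fold lower.

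Although the 8 genes differ in role and size of difference, their arrays fell in nearly one order. For all 8, HuD-KO replicate 2 was the highest HuD-KO array and the WT arrays ran from replicate 3 at the top through replicate 1 to replicate 2 at the bottom. Over all tested probes, 35.7% had HuD-KO replicate 2 highest, 29.6% had this WT order and 13.1% had both. The processed signals before scaling gave the same highest HuD-KO array and the same WT order for all 8 genes. The lowest HuD-KO array varied and was replicate 1 for Calml4, Enpp2, F5 and Sostdc1, and replicate 3 for Clic6, Kcnj13, Ccdc153 and Tmem212. The order of arrays within a genotype was not what the genes were chosen by, but it is given as a description, since the genes were measured in the same 6 mice.

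Within this shared order, most choroid epithelium genes varied more among the HuD-KO arrays by their main probes, and the motile cilia genes varied more among the WT arrays. HuD-KO replicate 2 lay 0.34 to 1.85 above the HuD-KO mean for the 6 choroid epithelium genes, against 0.24 and 0.36 for Ccdc153 and Tmem212. WT replicate 2 lay at -0.87 and -1.10 relative to the WT mean for Ccdc153 and Tmem212, against -0.56 to -0.21 for the choroid epithelium genes. The range over HuD-KO arrays exceeded that over WT arrays for 5 of the 6 choroid epithelium genes by their main probes, all but Calml4, and for 0 of the 2 motile cilia genes, where it did so for 39.0% of all tested probes. For Clic6 the ranges were close, at 0.58 in HuD-KO and 0.51 in WT. The second probes of Calml4 and Enpp2 had the wider range in WT.

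**Figure D2:**
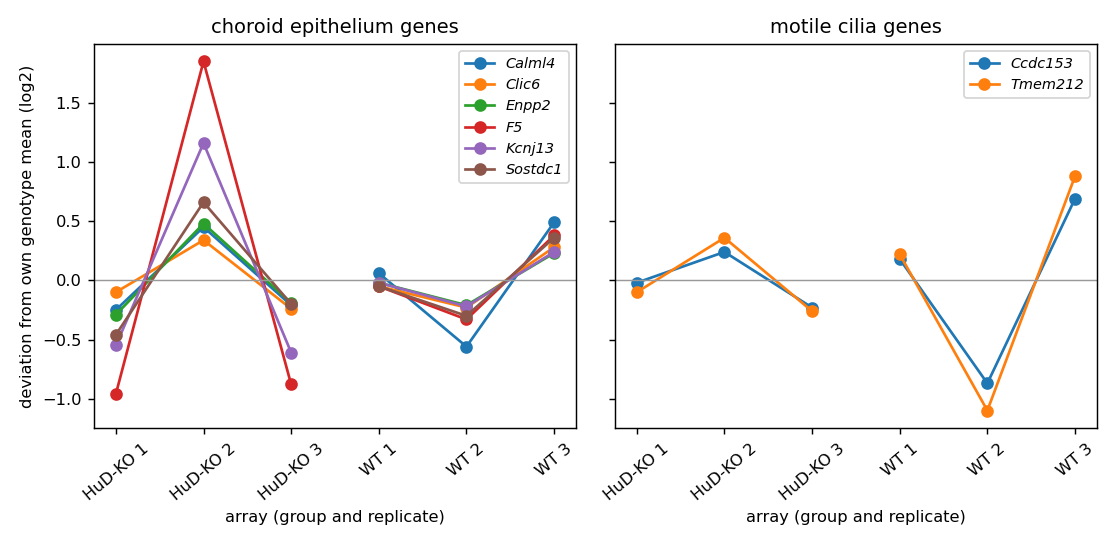
Deviation of each array from the mean of its own genotype (log2) for the 6 choroid epithelium genes (left) and the 2 motile cilia genes (right), with lines joining the arrays of one genotype only to guide the eye. HuD-KO replicate 2 rises furthest on the left, up to 1.85 for F5, and WT replicate 2 falls furthest on the right, to -1.10 for Tmem212.

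The means of the sets on each array showed the same split. Relative to the WT mean, the 6 choroid epithelium genes averaged -2.50, -1.24 and -2.45 on HuD-KO arrays 1 to 3 and -0.02, -0.31 and 0.33 on WT arrays 1 to 3. The 2 motile cilia genes averaged -1.89, -1.53 and -2.07, and 0.20, -0.98 and 0.79. On WT replicate 2 the motile cilia genes were thus further below the WT mean than the choroid epithelium genes. On HuD-KO replicates 1 and 3 they were less far below it, but this rested on F5: without it the choroid epithelium means in HuD-KO were -2.01, -1.06 and -1.97, and the direction turned on replicate 3.

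**Figure D3:**
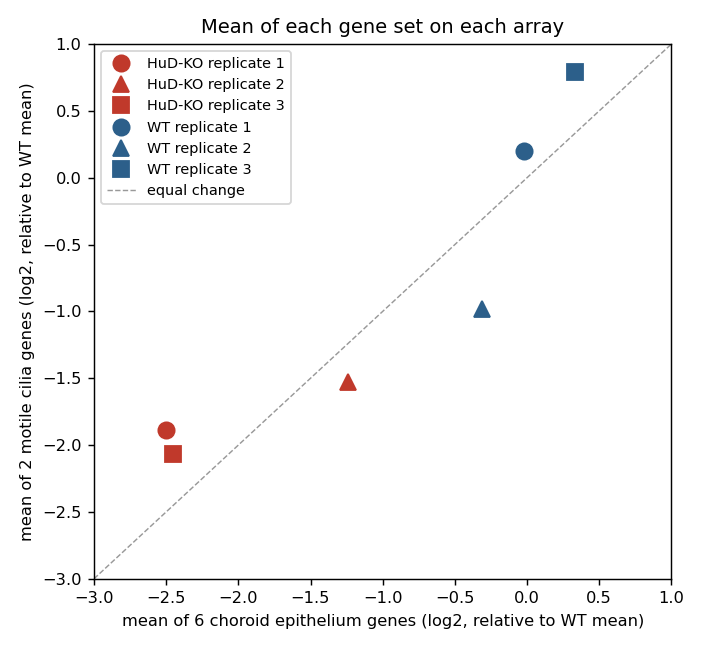
Mean of the 2 motile cilia genes against the mean of the 6 choroid epithelium genes on each array (both log2, relative to the WT mean), with HuD-KO in red, WT in blue and a dashed line where both means are equal. WT replicate 2 (-0.31 and -0.98) lies below the line and between the other WT arrays and HuD-KO replicate 2 (-1.24 and -1.53) on the vertical axis.

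Other genes of the same cell types showed how far the split in spread extends. Of 40 other symbols on a list of choroid epithelium genes, 9 were in the table lower in HuD-KO and 0 in the table higher in HuD-KO, where these tables held 1.62% and 0.577% of all tested probes. Of 99 other symbols on a list of ependymal and motile cilia genes, 29 were in the lower table and 0 in the higher table, against the same shares. These are counts of symbols, since some genes are listed under more than 1, such as 1500015O10Rik and Ecrg4. A gene deposited under a symbol that a list lacks is not counted, such as Ccdc19 for Cfap45. The lists were made with earlier results of these data known, and a list gene outside the tables carries no name here, so its level was not analysed here. Of the 29 motile cilia genes, 25 had a signal well above background on all 6 arrays. All 25 had a wider range in WT than in HuD-KO, with a median range of 1.37 against 0.44. The remaining listed motile cilia genes, not well above background on every HuD-KO array, are given below. Of the 9 choroid epithelium genes, 7 had a wider range in HuD-KO by their brightest probes, with a median of 0.84 against 0.69 in WT. In the lower table as a whole, 27.5% of 663 probes well above background on all 6 arrays had a wider range in HuD-KO. The spread could depend on the probe. For Trpm3, 1 of the 7, the probes for NM_001035243 and NM_001035242 spread more in WT (SD 0.29 and 0.47) than in HuD-KO (SD 0.26 and 0.18). Its probe for NM_001035239 spread more in HuD-KO (SD 0.46 against 0.22).

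**Figure D4:**
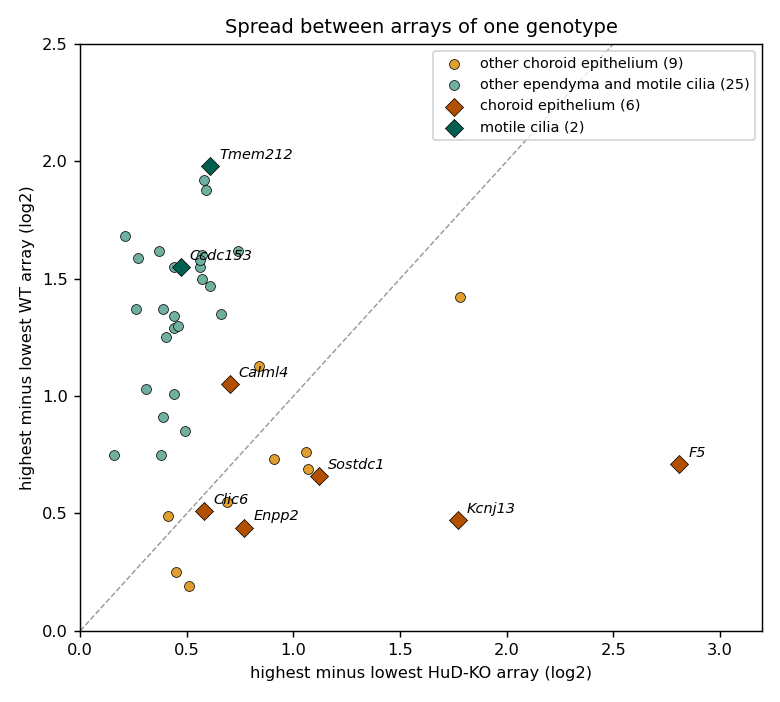
Highest minus lowest WT array against highest minus lowest HuD-KO array (log2) for the 8 genes (diamonds, named) and for the other listed choroid epithelium (9) and motile cilia (25) genes well above background on all 6 arrays (circles), with a dashed line where both ranges are equal. All motile cilia genes shown lie above the line, and 5 of the 6 named choroid epithelium genes and 7 of the 9 others lie below it.

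The order of arrays extended to most of these genes as well. HuD-KO replicate 2 was highest in HuD-KO and the WT order was 3, 1, 2 for 8 of the 9 choroid epithelium genes. Both held for 24 of the 25 motile cilia genes well above background on all 6 arrays, and for 26.2% of such probes in the lower table. The exceptions were Slc13a4, a sulfate transporter gene, with levels of 3.96, 3.87 and 3.45 in HuD-KO, and Armc3, an armadillo repeat gene of ciliated cells. Each gene was counted by its brightest such probe, and the order could depend on the probe. The Armc3 probes for NM_001271564 and NM_001271563 kept the shared order. The dimmer probes of Kif9 (NM_001163569) and Ccdc151 (NM_001163787) had another HuD-KO array highest. Among the choroid epithelium genes, 1500015O10Rik (also known as Ecrg4) had levels of -2.89, -1.15 and -2.93 in HuD-KO and 0.70, -0.15 and 1.28 in WT, a difference of -2.93. Wfikkn2, a secreted protease inhibitor, differed by -2.53, Col8a1, a collagen chain, by -1.37, and Cldn1, a tight junction protein, by -1.21. Prlr, the prolactin receptor, differed by -1.47. Trpm3, a cation channel, was named by 6 probes, of which the 4 well above background on all 6 arrays differed by -1.76 to -1.09, 3 of them in the shared order.

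Among the motile cilia genes, Rsph1, a radial spoke protein, had levels of -1.95, -1.72 and -2.18 in HuD-KO and 0.45, -0.40 and 0.90 in WT, a difference of -2.27. Ak7, an axonemal adenylate kinase, had levels of -2.29, -2.08 and -2.26 against 0.01, -0.97 and 0.71. WT replicate 2 was again the low WT array in both. Dnali1, a dynein light intermediate chain, differed by -1.32, Tekt2, a tektin of the axoneme, by -1.03, and Wdr63, a WD-repeat protein, by -2.28. Iqub, Ccdc114 and Dnah1 stood well above background in 3 WT mice but in 0 HuD-KO mice, so their HuD-KO levels are not given. Fam216b did so in 3 WT mice and 1 HuD-KO mouse. WT levels were -3.28, -3.08 and -3.26 for Iqub (SD 0.11) and -3.78, -3.70 and -4.07 for Dnah1 (SD 0.20). They were -3.84, -4.14 and -4.35 for Fam216b (SD 0.26). These genes did not have the WT order 3, 1, 2. Ccdc114 had it, at -3.72, -4.15 and -3.33 (SD 0.41).

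The named genes nearest in pattern were found among 838 listed genes well above background on all 6 arrays, by the root-mean-square distance in log2 units between profiles over the 6 arrays. Nearest to the mean profile of the choroid epithelium genes were Cox8b (0.11), a subunit of cytochrome c oxidase, Krt8 (0.15), a keratin of simple epithelia, Rdh5 (0.15), a retinol dehydrogenase, Steap1 (0.20), a metalloreductase family member, and A2m (0.21), alpha-2-macroglobulin. Cox8b levels were -1.97, -1.06 and -2.08 in HuD-KO and 0.30, 0.11 and 0.64 in WT. The genes that make up this mean were themselves further from it, from 0.33 for Calml4 and 0.39 for Clic6 to 1.08 for F5. Nearest to the mean of the motile cilia genes were Erich2 (0.08), Ccdc146 (0.09), Ccdc19 (0.09), Gm1661 (0.10) and Dynlrb2 (0.10), a dynein light chain. Erich2 levels were -2.52, -2.04 and -2.53 in HuD-KO and -0.46, -1.58 and 0.13 in WT. The 2 mean profiles were 0.45 apart. Each distance rests on 6 arrays, and the candidates had been selected on the same contrast.

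Calml4 and Enpp2 were each measured by a second named probe. The Calml4 probe for NM_138304 had levels of -1.79, -1.44 and -1.79 in HuD-KO and -0.43, -0.66 and 0.10 in WT, a difference of -1.34 (SE 0.22). HuD-KO replicate 2 was again highest in HuD-KO, and the WT arrays again ran from replicate 3 through 1 to 2, while HuD-KO replicates 1 and 3 were alike to 2 decimals. The Enpp2 probe for ENSMUST00000171545 had levels of 3.08, 2.73 and 2.70 in HuD-KO and 4.01, 4.32 and 3.66 in WT. It was also lower in HuD-KO, by -1.16 (SE 0.19), but in another order: HuD-KO replicate 1 was highest in HuD-KO, WT replicate 2 was highest in WT and WT replicate 3 was lowest. In deviations from the genotype mean, the main Enpp2 probe minus the second was 0.58 on HuD-KO replicate 2 and 0.57 on WT replicate 3, and -0.53 on HuD-KO replicate 1 and -0.54 on WT replicate 2. The spread was reversed as well, with a range of 0.37 over HuD-KO arrays and 0.66 over WT arrays on the second probe. The main probe is annotated as matching both transcripts and the second as matching ENSMUST00000171545 alone.

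**Figure D5:**
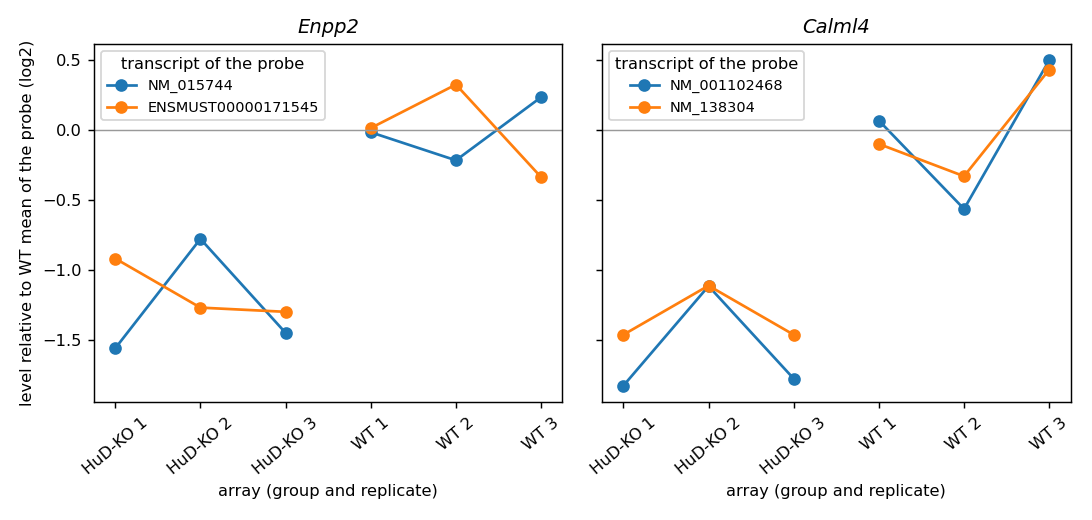
Level of each named probe relative to its own WT mean (log2) on the 6 arrays for Enpp2 (left) and Calml4 (right), with lines joining the arrays of one genotype. The Calml4 probes rise and fall together, whereas the Enpp2 probes move in opposite directions between WT replicates 2 and 3 (-0.21 and 0.23 for the main probe).

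Enpp2 is expressed by oligodendrocytes as well, so their marker list was examined beside it. Of 8 oligodendrocyte genes, 1 was in the lower table, Mbp, the myelin basic protein gene, with levels on its brightest probe of 2.15, 2.27 and 2.04 in HuD-KO and 3.33, 2.97 and 3.64 in WT. All 5 of its named probes had HuD-KO replicate 2 highest in HuD-KO and the WT order 3, 1, 2, as the main Enpp2 probe did. On the brightest Mbp probe the HuD-KO arrays were closer together (SD 0.12) than on the main Enpp2 probe (SD 0.42). This depended on the probe: the other Mbp probes had SDs of 0.18 to 0.23 and the second Enpp2 probe 0.21. The part of oligodendrocyte RNA in the Enpp2 values was not tested.

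Lists for the other cell types that a striatal dissection could hold were examined in the same way. Of 16 leptomeningeal fibroblast genes, Lum was in the lower table, and Crabp2 and Nov were in the higher table. Of 20 genes of neurons in neighbouring regions, Lef1 and Sim1 were in the lower table, and genes in the higher table included Neurod6, Tcf7l2 and Oxt. Neurod6, a transcription factor of cortical projection neurons, had levels of 6.03, 5.65 and 6.08 in HuD-KO and 4.28, 3.67 and 4.72 in WT. Of 7 astrocyte genes Fgfr3 was in the lower table, and 0 of 18 striatal projection neuron, 0 of 9 microglia and macrophage and 0 of 7 endothelial and mural genes were in either table. With 1.62% and 0.577% of all tested probes in the tables, counts of 0 or 1 in lists of this size say little about these cell types. Because list genes outside the tables carry no name here, the tissue label could not be checked against striatal markers. The part of tissue composition in the differences of the 8 genes was not tested.

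The position of the probes on the arrays was compared with the pattern. All 6 arrays lay on 1 slide, with the 3 HuD-KO arrays and WT replicate 1 in row 1 and WT replicates 2 and 3 in row 2. Within row 1, the choroid epithelium median was -1.52 and the motile cilia mean -2.03. Around each probe, the spots within 10 rows and columns had median deviations from -0.23 to 0.17. On HuD-KO replicate 2 the surroundings of F5 and of the main Enpp2 probe were dim, at -0.23 and -0.18, while F5 itself was at 1.85 and Enpp2 at 0.48. On WT replicate 2, where the motile cilia genes were low, the surroundings lay between -0.07 and 0.05.

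Promoter sequences were searched as a description only, since the genes were not chosen by them. Control of the 8 genes through their promoters was not tested. RefSeq promoters of GRCm38.p6 matched 5 of the 8 genes, Calml4, Ccdc153, F5, Kcnj13 and Tmem212. In the 250 bases before each start, on both strands, the X-box half-site GTTGCC, the letters read by RFX factors, the forkhead core TGTTTA, the letters read by factors such as FOXJ1, and the bicoid-type OTX site TAATCC were sought. GTTGCC was found in 1 of the 5, Ccdc153, at 152 bases before the start, and in 3425 (10.4%) of all 32851 promoters. TGTTTA was found in 2 of the 5, Tmem212 at 51 bases before the start and Kcnj13 at 27 bases before it on the other strand, and in 3952 of all 32851 promoters. TAATCC was found in 0 of the 5 and in 6.25% of all promoters. The stretches around the matches are written 5′ to 3′ on the strand of the gene, with the match in capitals. The match in Kcnj13 reads as the reverse complement. A match describes these letters only.
Ccdc153, chr9:44240485-44240570, GRCm38.p6, plus strand: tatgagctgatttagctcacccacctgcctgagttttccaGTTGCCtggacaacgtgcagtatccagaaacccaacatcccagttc
Tmem212, chr3:27896374-27896459, GRCm38.p6, minus strand: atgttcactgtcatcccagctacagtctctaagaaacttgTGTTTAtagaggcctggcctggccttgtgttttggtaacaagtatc
Kcnj13, chr1:87394730-87394796, GRCm38.p6, minus strand: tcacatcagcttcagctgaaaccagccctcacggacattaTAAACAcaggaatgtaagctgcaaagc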

How the data were processed

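The authors deposited the scanner output of 6 arrays, holding the processed intensity of each spot, and tables of transcripts lower (790 probes) and higher (298 probes) in HuD-KO, with a log2 normalized value per array whose method is not given in the sources used here. Per the file headers, the scanner software (Feature Extraction 11.0.1.1) subtracted background and did not normalize between arrays. The p-values and fold changes of the authors' tables were not used, and the tables were read for gene names, probe sequences and coordinates. The deposited log2 values served as an alternative.

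The log2 of the processed intensity was taken and the 75th percentile over target spots of each array was subtracted. Of 60915 target probes, 65 with outlier marks were left out, 15 negative probes were treated as controls, and 0 were saturated. The 47857 probes well above background on all 3 arrays of a group were fitted with limma 3.58.1 (lmFit and eBayes) in R 4.3.3, from which the SE of each difference was taken. The fit was tested on simulated data. Levels, distances and counts were computed in Python 3.11.15 (pandas 2.3.3), and figures were drawn with matplotlib 3.10.9. For genes with several named probes, the brightest is the main one.

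The genes and lists were chosen with earlier results of these data known. The genes named are the 8 genes, list genes in the tables except where not reported here, the 5 listed genes nearest to each mean profile, and Elavl4. Alternatives were other scalings, normexp background correction with an offset of 50, which used the median spot signal, filters on dim probes, the mean over probes, the deposited log2 values, the slide row, a replicate block, and leaving out each array.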

Additional observations from a re-analysis of the deposited data

How the results depend on the processing

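Of 196 values of 14 results under 16 alternatives, 194 kept their direction and their size, within 1 SD between replicates or within 1.5 times for counts, and 0 reversed. Part of these values could not change, so the total overstates the check. The replicate block leaves every difference as it was. Leaving out an array cannot make separate groups overlap. For a gene with 1 named probe, the mean over probes is the same value. With normexp background correction, tested probes over 2-fold lower in HuD-KO numbered 1068 instead of 2217, the difference of Clic6 was -1.17 instead of -1.46, and 7 of the 8 genes instead of 8 were over 2-fold lower, the exception being Sostdc1 at -0.73. The cause was not tested. Leaving out each array in turn gave a choroid epithelium median of -1.71 to -1.32, a motile cilia mean of -2.32 to -1.44, and 7 to 8 genes over 2-fold lower, with 7 without HuD-KO replicate 1 or without WT replicate 3, where Sostdc1 differed by -0.94 and -0.99. The lowest motile cilia value was without WT replicate 2. Without HuD-KO replicate 2, F5 differed by -4.89 and Kcnj13 by -3.53, against -3.97 and -2.95 with it.

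Same-numbered arrays showed no shared deviation from the group means over the tested probes, with correlations of -0.03, -0.06 and -0.13. Whether the mice were paired by litter or handling cannot be read from these values. With the number as a replicate block, the differences stay the same by construction, because each number occurs once in each group. The choroid epithelium median of -1.51 and the motile cilia mean of -1.83 under it are therefore no check. Only the SE could change. It rose for Calml4 (0.32 to 0.37), Clic6 (0.20 to 0.24), Enpp2 (0.23 to 0.26), Sostdc1 (0.32 to 0.34), Ccdc153 (0.39 to 0.42) and Tmem212 (0.50 to 0.53). The SE stayed at 0.49 for Kcnj13 and was 0.76 instead of 0.77 for F5. Signal over background limits Sostdc1 most, whose lowest processed signal was 34.8, where the lowest signals well above background were 14.7 to 18.8.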
